A study of Mus musculus with 30 samples.

Results

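The 4 mouse Hox clusters were examined for binding of cohesin and of the chromatin remodeller Snf2h. All regions of 8 lists of ChIP-seq peaks that lay in a fixed window around each cluster were taken, whatever their strength. These were 445 regions of the 624912 in the 8 lists. The windows were chr6:52050000-52280000 for HoxA, chr11:96030000-96260000 for HoxB, chr15:102720000-102890000 for HoxC and chr2:74470000-74630000 for HoxD, in the coordinates of the older mouse build mm9, and together they spanned 790 kb. The clusters are represented by 38 named Hox genes, 10 in HoxA, 10 in HoxB, 9 in HoxC and 9 in HoxD. With rising coordinate in the later build GRCm38 these genes run from Hoxa2 to Hoxa13, from Hoxb13 to Hoxb1, from Hoxc13 to Hoxc4 and from Hoxd13 to Hoxd1. The gene table at hand was not of the build of the lists, so sites are given by position and none was assigned to a gene, exon, intron or promoter.

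Hox genes encode homeodomain transcription factors that give cells their position along the body axis, and their order along the chromosome follows the order in which they are expressed from head to tail. Hoxb1 patterns the hindbrain, Hoxa2 the neural crest of the pharyngeal arches, Hoxc8 and Hoxc9 the thoracic vertebrae, Hoxa13 and Hoxd13 the digits, and Hoxc13 hair. CTCF, which reads DNA through a row of zinc fingers, binds at several places in each cluster and is known there as a boundary between active and silent chromatin. Cohesin, a ring that contains SMC1, SMC3 and the cleavable subunit RAD21, extrudes chromatin loops and is held up at CTCF. Snf2h is the ATPase of ISWI remodellers, which slide nucleosomes, and is known to be needed for CTCF binding in mouse stem cells.

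Cohesin was mapped in NIH3T3, a mouse embryonic fibroblast line, with antibodies against SMC1, RAD21 and SMC3. The control cells stably carried the empty vector, a CpG-free plasmid from which beta-galactosidase is expressed (EV cells), and the other cells were clone 2 of cells that stably expressed BORIS from a CpG-free plasmid (BORIS cells). BORIS, or CTCFL, is the germline relative of CTCF with a similar zinc finger array. Snf2h was mapped in the mouse B lymphoma line CH12, in the wild type and in a mutant made with CAS9, in which both copies of the CTCF gene lacked zinc fingers 9 to 11. Each of the 8 combinations had 1 library, and the BORIS cells were 1 clone, so a difference between lines was not tested and cannot be told apart from a difference between 2 libraries or 2 cultures. The lists hold no expression values, so the cell types could not be checked against marker genes.

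The cohesin lists held 82235 to 107735 regions and the Snf2h lists 17304 in wild-type and 23870 in mutant cells. The lists give for each region a fold over local background and a −log10 p at the summit, the position of highest fragment density. Together these fix the number of fragments over the summit, which came out whole for 100% of regions in each of the 8 lists within a tolerance of 0.001. That number is given below as fragments at the summit. A percentile is the rank of a region by −log10 p in its own list, with 100 the strongest. A stand-in for depth, the genome-wide average of fragments per kb, was 7.43 to 8.79 in the cohesin lists. It was 20.6 in wild-type and 13.8 in mutant Snf2h. A site that a list does not hold had no call there, which is not a measurement of 0.

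HoxA carried the most cohesin sites, and the order of the other clusters depended on the setting. The regions of the 6 cohesin lists merged into 100 Hox sites of 150690 in the genome, where regions that overlapped or touched were joined. HoxA held 46 sites, or 20.0 per 100 kb, against 14 or 6.09 per 100 kb in HoxB, a window of the same length. HoxC held 21 sites, 12.4 per 100 kb, and HoxD 19, 11.9 per 100 kb. Tiles of 230 kb laid end to end over the genome had a median of 8 sites and a 90th percentile of 33. HoxA thus lay above the 90th percentile, and HoxB was above the median of all tiles but below the median of 19 for chromosome 11, on which it lies. The medians for tiles as long as the HoxC and HoxD windows were 6 and 6, with 90th percentiles of 25 and 24, so HoxC and HoxD lay between the median and the 90th percentile. HoxB had the fewest sites here, but not when a −log10 q of 10 or more was required, where the sites numbered 23 in HoxA, 11 in HoxB, 13 in HoxC and 10 in HoxD. With windows wider by 50 kb on each side they numbered 55, 35, 25 and 21, so that HoxB came next after HoxA.

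Every list had the HoxA excess. In EV cells HoxA held 35 regions with SMC1, 25 with RAD21 and 42 with SMC3, and in BORIS cells 37, 23 and 37. The tile medians were 5 or 6 and the 90th percentiles 18 to 24, all below the HoxA counts. HoxB held 8, 9 and 8 regions in EV cells and 11, 9 and 13 in BORIS cells. HoxC held 21, 12 and 16 in EV cells and 11, 10 and 11 in BORIS cells, and its 21 SMC1 regions were also above the 90th percentile of tiles of its length, 18. Its SMC1 count was the one with the lowest ratio of BORIS to EV, 0.524, and the 95% interval of 0.228 to 1.14 included the ratio of the whole lists, 0.960. HoxD held 15, 10 and 11 regions in EV cells and 14, 13 and 15 in BORIS cells. Over the 4 clusters the ratios were 0.924 with SMC1, 0.982 with RAD21 and 0.987 with SMC3, and the interval of each held the ratio of its whole list.

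**Figure D1:**
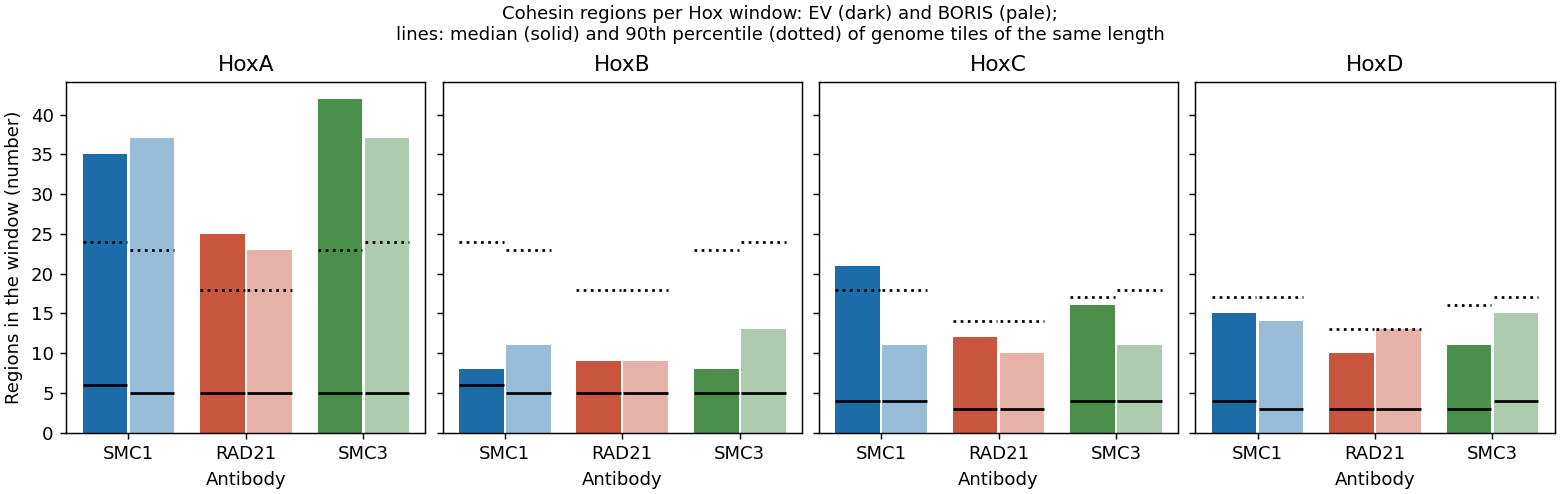
Number of cohesin regions in each Hox window (vertical axis) by antibody, with EV cells in dark and BORIS cells in pale bars; solid lines mark the median and dotted lines the 90th percentile of genome tiles of the same length. The HoxA bars, 23 to 42 regions, all lie above the dotted lines, as does the HoxC bar for SMC1 in EV cells, and the HoxB bars lie below them.

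Sites called in all 6 lists made up 37 of the 100 Hox sites, a share of 37% (exact 95% interval 27.6 to 47.2) near the 34.5% of all merged sites. They were 15 of 46 in HoxA, 7 of 14 in HoxB, 7 of 21 in HoxC and 8 of 19 in HoxD. Sites called in a single list made up 24 of 100, against 25.3% in the genome, and 39 were in 2 to 5 lists, against 40.3%. Of the sites in a single list, 13 of 24 were in HoxA. At the 37 sites the summits of the 6 lists lay within a median of 32 bp of each other, against 39 bp at all such sites of the genome.

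**Figure D2:**
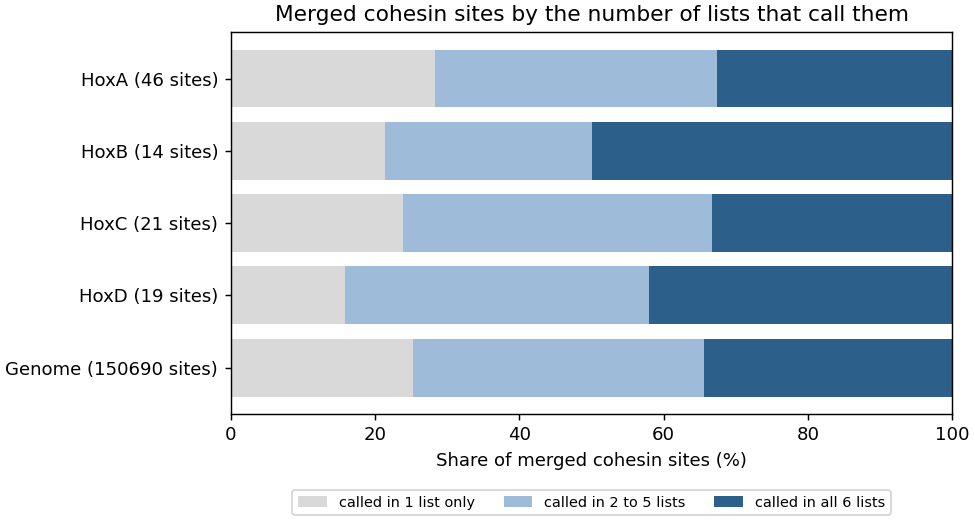
Share of merged cohesin sites (horizontal axis, percent) called in 1 list, in 2 to 5 lists or in all 6 lists, for each Hox window and the genome. Sites in all 6 lists are 32.6% in HoxA and 50% in HoxB, against 34.5% in the genome.

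Each cluster held several strong sites spaced along it. Sites at or above the 75th percentile in all 6 lists numbered 15 of the 100, against 10.4% of all merged sites. They were 5 in HoxA, 3 in HoxB, 3 in HoxC and 4 in HoxD, with a median spacing of 15.4, 21.9, 21.4 and 15.9 kb. Their 6 summits fell within 8 to 33 bp of each other. The coordinates and fragments at the summit of the 15 sites follow by cluster, always in the order SMC1, RAD21, SMC3. Fragments were lower in BORIS cells at 14, 15 and 15 of the 15. Among all 15715 sites of this strength in the genome the shares were 93.4%, 94.2% and 91.1%.

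In HoxA the strong sites lay between 96.9 and 170.4 kb from the start of the window. The first, chr6:52146854-52147656, had 68, 115 and 97 fragments in EV cells and 56, 80 and 63 in BORIS cells. The second, chr6:52153607-52154860, had 87, 151 and 108 against 58, 78 and 75. Both had more fragments with RAD21 than with either SMC antibody in each line. By percentile this did not hold for the second site in BORIS cells, at 90.3, 89.1 and 91.1. The third, chr6:52171350-52172021, had the highest RAD21 value of HoxA, with 87, 180 and 104 fragments in EV cells and 64, 141 and 83 in BORIS cells. The fourth, chr6:52206947-52207505, had 80, 138 and 95 against 55, 98 and 75. The strongest by its median percentile, 94.4, was chr6:52220443-52220953, at 101, 101 and 109 against 75, 68 and 94, where the antibodies were close to each other in EV cells. A further site, chr6:52161325-52161905, stood just outside the group, since its RAD21 percentile in EV cells was 74.9.

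In HoxB the strong sites lay between 66.2 and 110.1 kb. Site chr11:96096154-96096657 had 107, 139 and 133 fragments in EV cells and 86, 116 and 97 in BORIS cells. Site chr11:96101503-96101894 had 52, 97 and 73 against 52, 82 and 63, the one strong site at which SMC1 was not lower in BORIS cells. The strongest by median percentile, 94.5, was chr11:96140073-96140654, at 80, 150 and 106 against 78, 107 and 90.

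HoxC held the strongest cohesin site of the 4 clusters. At chr15:102817632-102818473 the summit held 174, 196 and 199 fragments in EV cells and 120, 165 and 178 in BORIS cells. Its percentiles were 99.3 to 99.8, so it ranked near the top of all 6 lists. It was flanked by chr15:102800975-102801864, with 140, 138 and 176 fragments against 103, 104 and 147, and by chr15:102843891-102844403, with 134, 155 and 168 against 106, 112 and 125. In all 6 lists these 3 sites were at or above the 94.7th percentile.

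In HoxD the 4 strong sites spanned 31.5 to 83.8 kb. The strongest, chr2:74553775-74554579, had 131, 180 and 158 fragments in EV cells and 75, 141 and 114 in BORIS cells, a median percentile of 97.5. Next came chr2:74540164-74540695, with 63, 99 and 87 against 41, 68 and 53. Site chr2:74501457-74501945 had 78, 104 and 90 against 39, 61 and 60. These 3 had the most fragments with RAD21 in both lines, although fragments of different libraries are not on 1 scale. By percentile RAD21 was highest at the first 2 only. At chr2:74501457-74501945 the percentiles were 90.6, 89.8 and 89.0 in EV cells and 82.6, 86.1 and 88.1 in BORIS cells. The fourth, chr2:74524387-74524734, had 64, 61 and 79 fragments against 33, 45 and 75, the most with SMC3. Its percentile in EV cells was 89.1 with SMC1 and 88.6 with SMC3.

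**Figure D3:**
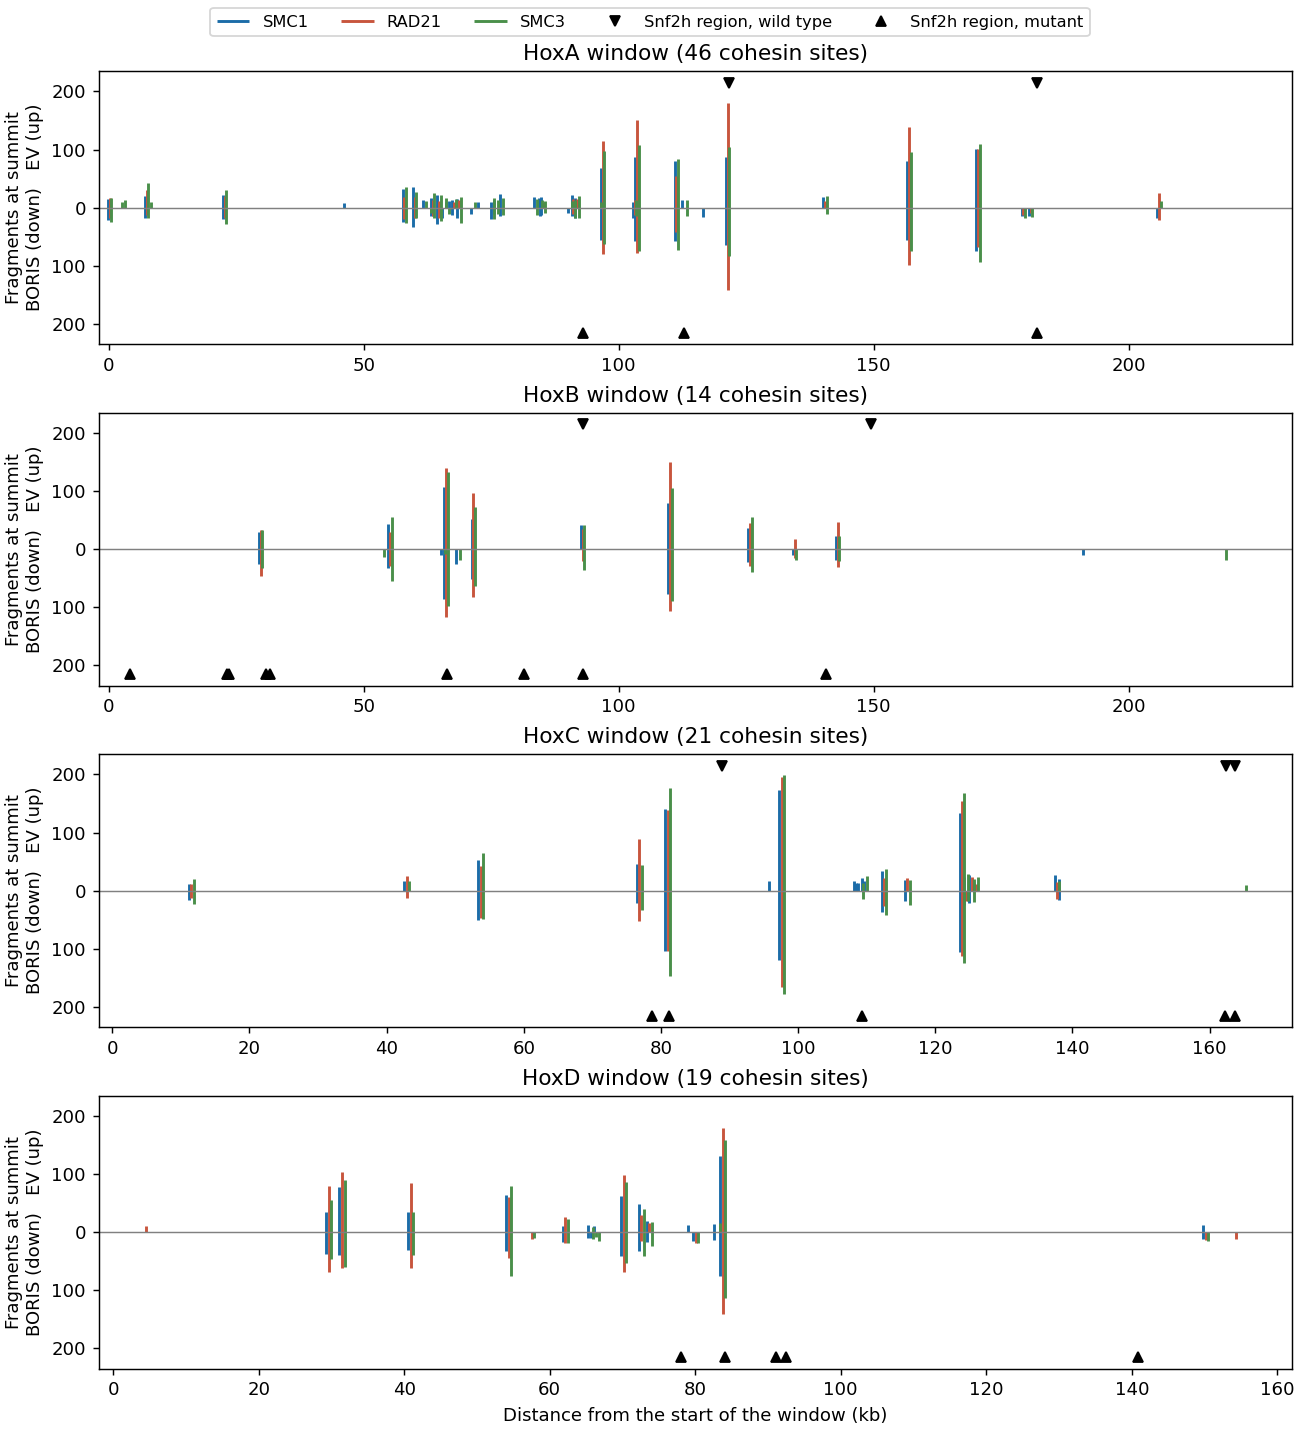
Fragments at the summit (vertical axis; EV cells upward, BORIS cells downward) of every called cohesin site along each Hox window (horizontal axis, kb from the window start), coloured by antibody with the antibodies drawn slightly apart; triangles mark Snf2h regions in wild-type (top) and mutant (bottom) CH12 cells. Short bars fill the HoxA window from 58.0 to 96.3 kb, and tall bars stand 15.4 to 21.9 kb apart in the median. In HoxD no cohesin site is called for 65.6 kb after its tallest site.

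Weak sites were crowded in one stretch of HoxA. When sites less than 10 kb apart were chained, a measure chosen after the sites were seen, 33 of the 46 HoxA sites formed a single chain of 64.1 kb, chr6:52107962-52172021. Over the whole chain 10 of 33 sites were called in all 6 lists and 9 in a single list, near the 34.5% and 25.3% of all merged sites, and 19 had no RAD21 call in either line, against 36.9%. The first 38.4 kb of it, before the first strong site, held 25 sites. Of these 5 were called in all 6 lists and 7 in a single list, and 16 had no RAD21 call. The stretch was cut to end before the first strong site, so its counts and levels are in part fixed by that cut and are given as a description. The most fragments at a summit in that stretch were 36, 19 and 35 in EV cells and 34, 20 and 27 in BORIS cells. When each site was given the median of its percentiles over the lists that call it, the median of the 25 sites was 20.5, that of the 13 HoxA sites outside the chain 44.7 and that of all merged sites 35.6. The other 8 sites of the chain had a median of 54.9 and were a mixture, the 3 strong sites and chr6:52161325-52161905 standing among 4 weak ones. The local background that the lists give for these 25 sites had a median of 1.83 to 2.43 fragments per list, and that of all merged sites 1.59 to 1.88. The stretch was the higher in each of the 6 lists, by the least with SMC1 in EV cells, at 1.88 against 1.82. The rest of the chain had a higher background still, 2.33 to 2.95 fragments, with fewer sites. The part of this background in the crowding was not tested.

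HoxC and HoxD each had a shorter chain, of 13 sites over 30.2 kb. In HoxC it was chr15:102816077-102846265, which held the strongest site and a group of 5 weak sites between 108.4 and 110.0 kb, all of them without RAD21. The HoxD chain, chr2:74524387-74554579, held 5 of the 8 HoxD sites called in all 6 lists and ended with the strongest site of the cluster. No cohesin site was called in the next 65.6 kb, the longest interval without a site in the 4 windows. HoxB had no chain of more than 4 sites, and its longest interval was 48.2 kb.

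Over all clusters, RAD21 had no call in either line at 41 of the 100 Hox sites, near the 36.9% of all merged sites. The share by cluster was 23 of 46 in HoxA, 5 of 14 in HoxB, 8 of 21 in HoxC and 5 of 19 in HoxD.

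RAD21 regions of the Hox windows nearly all lay on SMC regions, while the reverse held less fully, with the same order in the genome. In EV cells 53 of 56 RAD21 regions overlapped an SMC1 region and 53 of 56 an SMC3 region, against 87.8% and 87.9% of the whole list. In BORIS cells the counts were 49 and 51 of 55, against 86% and 90.2%. Conversely, RAD21 regions overlapped 51 of 79 SMC1 regions in EV cells, against 67.9%, and 52 of 77 SMC3 regions, against 72.5%. In BORIS cells they overlapped 48 of 73, against 68.1%, and 48 of 76, against 67.2%. The difference in the number of RAD21 and SMC regions moves with these shares, and its part in them was not tested. Between the SMC antibodies, 65 of 79 SMC1 and 66 of 77 SMC3 regions overlapped in EV cells, against 77.4% and 82.9%, and 63 of 73 and 64 of 76 in BORIS cells, against 82.9% and 77.9%.

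Overlap between the lines with the same antibody was of a similar size. Of the EV regions 56 of 79 with SMC1, 46 of 56 with RAD21 and 59 of 77 with SMC3 overlapped a BORIS region, against 73.2%, 75.7% and 78.6% of the whole lists. Of the BORIS regions 59 of 73, 47 of 55 and 59 of 76 overlapped an EV region, against 77.5%, 78.2% and 73.1%. Over all pairs of lists the Hox medians were 85.0% within a line and 79.2% between lines, and the genome medians 80.4% and 76.6%.

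The number of Hox sites private to a line was small and depended on the rule. Sites called with all 3 antibodies in BORIS cells and with none in EV cells numbered 3 of 100, against 2.41% of all merged sites, and the reverse held for 1 site, against 1.61%. Both backgrounds lay within the exact 95% intervals, 0.623 to 8.52% and 0.0253 to 5.45%. The 3 BORIS-only sites were chr6:52229334-52229557, with 15, 13 and 18 fragments, chr6:52230777-52230990, with 14, 10 and 16, and chr2:74550079-74550572, with 16, 18 and 19. Both HoxA sites lay past the strongest HoxA site and were 8381 and 9824 bp from the nearest site with an EV call. The HoxD site was 654 bp from a site called with SMC1 in EV cells. The EV-only site, chr15:102845932-102846265 in HoxC, had 14, 12 and 24 fragments and was 172 bp from a site called with 2 antibodies in BORIS cells. Its percentiles in EV cells were 0.675, 2.29 and 51.0. No percentile at these 4 sites was above 56.1. With a −log10 q of 10 or more required there were 0 BORIS-only sites and 1 EV-only site. That 1 was a different site, since the HoxC site had a −log10 q of 1.98 with SMC1 and 2.51 with RAD21. It was chr6:52057426-52057710 in HoxA, with 13.0, 27.2 and 36.2 in EV cells and 8.40, 5.55 and 8.61 in BORIS cells. The main rule calls that HoxA site in all 6 lists. The counts rose under looser rules, to 7 BORIS-only and 4 EV-only sites with at least 2 antibodies, to 7 and 6 when RAD21 was left out, and to 5 BORIS-only sites when SMC1 was left out. EV-only sites numbered 2 when SMC3 was left out.

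Sites called in lists of 1 line only, with any number of antibodies, fell unevenly over the clusters. This grouping was made after the sites were seen. In EV lists only were 11 sites of HoxA, 0 of HoxB, 7 of HoxC and 2 of HoxD, against 18.6% of all merged sites. In BORIS lists only were 6, 5, 0 and 4, against 18.8%. HoxB therefore had calls of this kind in BORIS cells alone and HoxC in EV cells alone, on few sites. The exact 95% interval for HoxC in BORIS lists only, 0 of 21, reached 16.1%, below the background. All other intervals, over the 4 clusters and both lines, included theirs. In HoxB 0 of 14 reached 23.2% and 5 of 14 spanned 12.8 to 64.9%, and in HoxC 7 of 21 spanned 14.6 to 57.0%. In EV and BORIS lists the intervals were 12.6 to 38.8% and 4.94 to 26.3% for HoxA, and 1.30 to 33.1% and 6.05 to 45.6% for HoxD. The grouping came after the sites were seen and neighbouring sites are not independent. A single interval therefore cannot show a departure from the background. The highest percentile of any of the 20 EV sites was 51.0, and 16 were in a single list. Of the 15 BORIS sites 8 were in a single list. In the genome 27982 sites were in EV lists only and 28389 in BORIS lists only, and 38079 of these were in a single list. The highest percentile of the 15 BORIS sites, 73.7, belonged to chr11:96098478-96098653 in HoxB, with 26 fragments with SMC1 and 19 with SMC3.

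At the sites called in all 6 lists the summits held fewer fragments in BORIS cells, by factors close to those of all such sites in the genome. The median ratio of BORIS to EV fragments over the 37 Hox sites was 0.804 with SMC1, 0.778 with RAD21 and 0.839 with SMC3, against 0.780, 0.792 and 0.824 for 51926 such sites in the genome. Fragments were lower in BORIS cells at 29, 28 and 29 of the 37 with SMC1, RAD21 and SMC3, against 75.1%, 74.8% and 71.2% of such sites in the genome. To set this general difference aside, each list was ranked anew over those same 51926 sites. This common percentile replaces the percentile in the list from here to the Snf2h results, and the shift is its value in BORIS cells minus that in EV cells. The median shift of the 37 sites was 0.92 points with SMC1, −0.13 with RAD21 and 0 with SMC3.

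A shift of at least 10 points in the same direction with all 3 antibodies was reached by 2 of the 37 sites upward, against 7.01% of such sites in the genome, and by 0 downward, against 6.3%. Both were in HoxC. At chr15:102832542-102832966 the fragments were 34, 21 and 38 in EV cells and 36, 27 and 42 in BORIS cells, shifts of 16.8, 14.7 and 13.6 points. At chr15:102731545-102731751 they were 11, 11 and 20 against 16, 13 and 23, shifts of 18.3, 11.1 and 12.6 points. The ratio of fragments at the second site with SMC1 was 1.45, with a 95% counting interval of 0.634 to 3.47 that includes both 1 and the genome's 0.780.

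A shift of at least 20 points with any antibody was seen downward at 2 of the 37 sites, against 18.7% of such sites in the genome, and upward at 2, against 17.4%, and at none of the 4 with all 3 antibodies. HoxA site chr6:52057426-52057710 had 20, 31 and 42 fragments in EV cells and 17, 13 and 17 in BORIS cells, so that its common percentile moved by −5.5 points with SMC1, −36.5 with RAD21 and −38.1 with SMC3. HoxC site chr15:102796863-102797163 had 45, 88 and 44 against 21, 53 and 34, with shifts of −37.8, −4.7 and −5.4 points. Upward, HoxD site chr2:74532167-74532519 had 10, 26 and 23 fragments against 17, 19 and 18, with shifts of 26.8, −3.8 and −6.7 points. HoxB site chr11:96059756-96060203 had 30, 33 and 33 against 25, 46 and 32, with shifts of 2.1, 21.5 and 6.9 points. These 4 sites were picked after their values were seen. Taking each antibody by itself, shifts of at least 10 points upward were seen at 8 of the 37 sites with SMC1, 6 with RAD21 and 5 with SMC3, against 22.9%, 18.8% and 20.2% in the genome. Downward they were seen at 8, 4 and 4, against 24.1%, 19.2% and 20.9%.

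**Figure D4:**
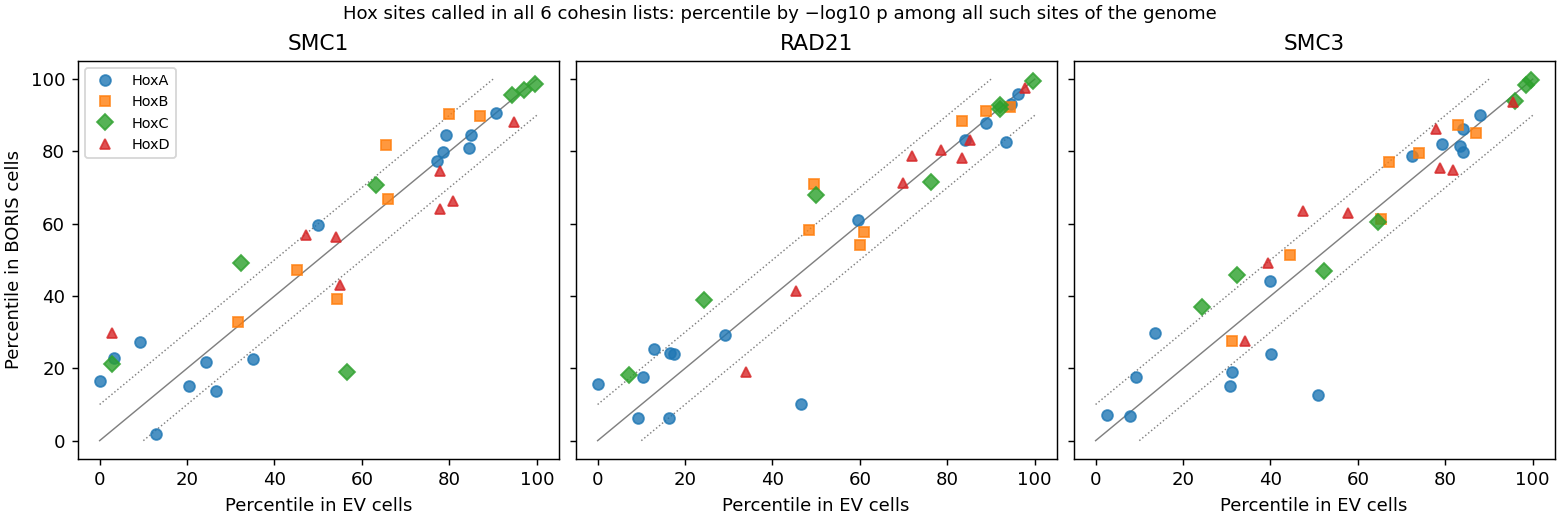
Percentile in EV cells (horizontal axis) against BORIS cells (vertical axis) of the 37 Hox sites called in all 6 lists, ranked by −log10 p among all 51926 such sites, with 1 panel per antibody; the solid line is equality and dotted lines are 10 points away. HoxC points reach the upper right corner in each panel, many HoxA points sit at the lower left, and the points below the band include a HoxC site with SMC1 at 56.6 and 18.9.

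Among sites called in all 6 lists, those of HoxA ranked lower than those of the other clusters. The median common percentile of the 15 HoxA sites was 25.3 to 40.2 over the 6 lists. It was 61.0 to 77.1 for the 7 HoxB sites, 60.5 to 76.3 for the 7 HoxC sites and 60.4 to 78.5 for the 8 HoxD sites. The range within HoxA was wide, from 0.177 to 96.2 with RAD21 in EV cells.

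The balance of the antibodies differed between Hox sites, and at 10 of the 37 by at least 10 points the same way in both lines. For each site the mean common percentile with SMC1 and SMC3 was subtracted from that with RAD21, a measure chosen after the values were seen. RAD21 was higher by at least 10 points in both lines at 6 of the 37 sites, against 11.7% in the genome, and lower at 4, against 10.9%. All 10 are named here, chosen by that measure. The 6 included 3 HoxD sites. Of these chr2:74510909-74511423 had 35, 85 and 34 fragments in EV cells and 30, 62 and 40 in BORIS cells, a difference of 27.8 and 20.5 points. HoxB site chr11:96172936-96173178 had 23, 46 and 23 against 19, 30 and 20, a difference of 29.6 and 27.5 points. RAD21 exceeded both SMC antibodies in each line at these 2 sites. The other 4 were chr6:52171350-52172021 in HoxA, with 17.2 and 15.0 points, chr15:102796863-102797163 in HoxC, with 21.8 and 38.7, and the HoxD sites chr2:74499656-74500234, with 19.5 and 18.8, and chr2:74532167-74532519, with 26.7 and 12.9. On the other side, HoxA site chr6:52161325-52161905 had 81, 54 and 83 fragments against 58, 42 and 73, a difference of −15.2 and −17.0 points. HoxD site chr2:74542611-74543552 had 48, 29 and 40 against 33, 16 and 41, a difference of −13.2 and −27.3 points. At both RAD21 was the lowest of the 3 antibodies in each line. The other 2 were chr6:52109974-52111419 in HoxA, with −23.7 and −13.0 points, and chr11:96085127-96085456 in HoxB, with −18.1 and −13.8.

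**Figure D5:**
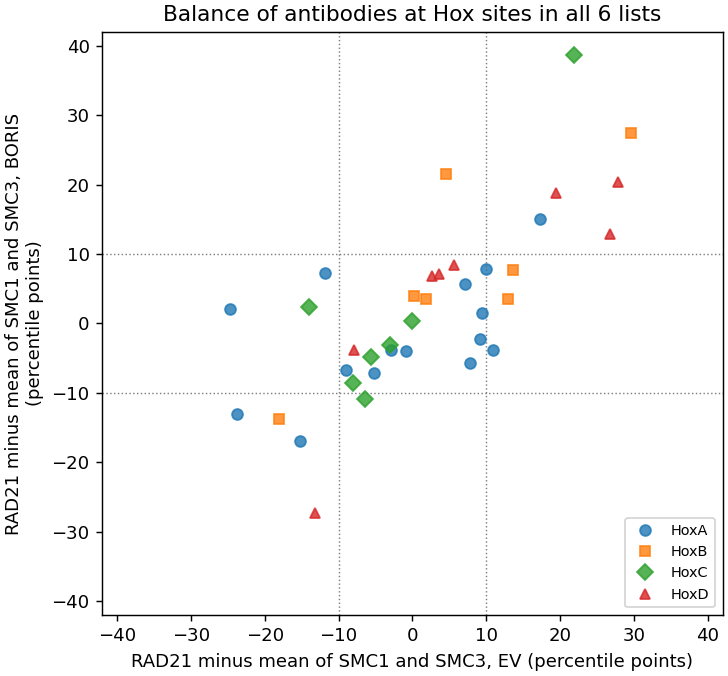
RAD21 percentile minus the mean of the SMC1 and SMC3 percentiles, all ranked among the 51926 sites called in all 6 lists, in EV cells (horizontal axis, points) and in BORIS cells (vertical axis, points), for the 37 Hox sites among them; dotted lines mark 10 points either way. The upper right corner holds 6 sites and the lower left corner 4.

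Snf2h was called in the Hox windows at 7 regions in wild-type CH12 cells and at 22 in the CTCF mutant. By cluster the wild-type list held 2 regions in HoxA, 2 in HoxB, 3 in HoxC and 0 in HoxD, and the mutant list 3, 9, 5 and 5. The ratio of mutant to wild type was 3.14 with a 95% interval of 1.30 to 8.71, and that of the whole lists was 1.38 (1.35 to 1.41). The first interval includes the second ratio. With both lists held to 17304 regions, the mutant had 16 Hox regions, a ratio of 2.29 (0.890 to 6.57) where the whole lists are equal by construction. For 230-kb tiles the median was 0 wild-type and 1 mutant region and the 90th percentiles were 5 and 7, so the 9 HoxB regions of the mutant were above the 90th percentile. On chromosome 11 alone the medians were higher, 2 wild-type and 3 mutant regions. The 5 mutant regions of HoxD were at least 737.8 kb from the nearest wild-type region.

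All 7 wild-type regions were weak in their list, where percentiles are again ranks in the list. Their summits held 16 to 24 fragments, their fold was 2.84 to 3.83 and their percentile 1.54 to 40.9. The highest was chr15:102882367-102882575 in HoxC, with 24 fragments and a fold of 3.38. Next were chr6:52232052-52232245 in HoxA, with 18 fragments and a fold of 3.83, and chr11:96123025-96123289 in HoxB, with 16 and 3.60. Then came chr11:96179499-96179661, with 16 and 3.56, and chr15:102883745-102884001, with 21 fragments and the lowest fold of these 5. None of the 7 reached a −log10 q of 10, against 16.9% of the list.

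The mutant regions reached higher. Their summits held 14 to 48 fragments and their percentiles ran from 5.95 to 90.5. The strongest was chr15:102798661-102798912 in HoxC, with 48 fragments and a fold of 5.52. Its summit lay 1.74 kb from that of a cohesin site of all 6 lists. In HoxA chr6:52142997-52143390 had 27 fragments and a fold of 5.84, and these were the only 2 of the 22 whose −log10 q was 10 or more, against 21.8% of the list. In HoxD chr2:74610841-74611102 had 20 fragments and a fold of 5.72 and lay in the stretch without called cohesin sites. In HoxB chr11:96170566-96170793 had 27 and 4.30, and chr11:96111382-96111727 had 19 and 5.47.

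Of the 7 wild-type regions 4 overlapped a mutant region and 3 did not, against 38.8% of the list without an overlap. In the mutant 18 of 22, or 81.8% (exact 95% interval 59.7 to 94.8), had no wild-type region, against 56.1% of the list, which lies below that interval. With both lists held to their 17304 strongest regions the count was 12 of 16, or 75% (47.6 to 92.7), against 47.6% of the list, which lies at the lower bound. In the full mutant list of 22, all 5 HoxD and 8 of 9 HoxB regions had no wild-type region. The depth stand-in was lower in the mutant list than in the wild-type list, 13.8 against 20.6, and its part in these counts was not tested.

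The Snf2h regions of CH12 were also set against the cohesin sites of NIH3T3, which are other cells. Overlap with any merged cohesin site was found for 2 of 7 wild-type regions, against 34.4% of the list, and for 6 of 22 mutant regions, against 34.4% as well. Overlap with a site of all 6 lists was found for 1 of 7, against 25%, and 3 of 22, against 23.4%. Those 4 overlaps were all with strong sites, 1 in each cluster: the third strong HoxA site in wild-type cells, and chr11:96096154-96096657, chr15:102800975-102801864 and chr2:74553775-74554579 in the mutant. At these the Snf2h summit lay 0.079, 0.072, 0.0705 and 0.211 kb from the cohesin summit. They were chosen after the overlaps were seen, and each had 14 to 25 Snf2h fragments. Of the 37 Hox sites in all 6 lists 15 were strong, and of the 51926 in the genome 15715. The share of strong sites among such overlaps over the genome is not given here.

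Promoter sequences of 22 of the 38 genes were at hand from RefSeq, of build GRCm38.p6, as 24 windows of 300 bases. The CTCF core motif searched was CCANNAGNNGGC, on both strands. It was in 0 of the 24 windows, so that the share could be as high as 12.5% by the limit of 3 counts and 14.2% by the exact interval, and in 2.43% of all 32851 such windows. A difference of that size was not detectable with 24 windows.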

How the data were processed

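ChIP-seq was done on formaldehyde-fixed, sheared chromatin, per the labels' protocols. The submitters' processing notes name Bowtie2, Bowtie, SAMtools, MACS2, deepTools 3.5.0 and the builds mm9 and hg19, with no role or order. The lists have the narrowPeak layout. The authors deposited for each region a score, a fold (ratio to local background) and −log10 p and −log10 q values, which were used only within their own list. The lowest −log10 q was 1.30 to 1.35. Region names in the Snf2h lists carry a tag that can mean pooled replicates, which is not stated in the sources used here.

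Regions in the 4 windows were selected, and the 6 cohesin lists were merged where regions shared 1 bp or touched. Summit fragments were solved from fold and −log10 p as a Poisson tail, a step tested on simulated data. Tiles of each window's length covered chromosomes 1 to 19, X and Y. Shares and ratios carry exact (Clopper-Pearson) 95% intervals, which cover counting error only; neighbouring regions are not independent. With 1 library per group no test was made. The text names the strong, private and shifted sites, the strongest site per cluster and the 5 Snf2h regions with the highest −log10 p per list, and says where others were picked. The members, lists and rules were chosen with earlier results of these data known. Alternatives tried were a −log10 q of 10 or more, equal numbers of regions, summits joined within 200 bp, windows wider by 50 kb, ranks by fold, 20 points, at least 2 antibodies, a 1-kb distance from Snf2h calls of the other line, and each antibody left out. The other 22 samples of the series were not analysed here. Python 3.11.15, pandas 2.3.3 and SciPy 1.17.1 were used.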

Additional observations from a re-analysis of the deposited data

How the results depend on the processing

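Of 82 values recomputed under another setting, 61 stayed within the limits set for calling them unchanged (1.5 times for a count, the 95% interval for a share, 5 points for a rank shift, the range over pairs of lists for their overlap), 20 moved and 1 changed sign. The share of Snf2h regions at cohesin sites is among the 61 because its intervals are wide, although it went from 28.6 to 14.3% in the wild type and from 27.3 to 13.6% in the mutant when the sites had to be in all 6 lists. At a −log10 q of at least 10 the merged sites were 23 in HoxA, 11 in HoxB, 13 in HoxC and 10 in HoxD, BORIS-only sites were 0, wild-type Snf2h regions 0 (0 private) and mutant ones 2 (2 private). With windows wider by 50 kb HoxA held 55 sites, HoxB 35, HoxC 25 and HoxD 21. At both settings HoxB was no longer the cluster with the fewest. BORIS-only sites were 5 without SMC1, 7 without RAD21 and 7 with at least 2 antibodies. EV-only sites were 6 without RAD21, 2 without SMC3 and 4 with at least 2 antibodies. Sites that shifted up in BORIS cells were 1 when ranked by fold and 0 at 20 points, and those that shifted down were 1 without SMC1, 2 without RAD21 and 2 without SMC3. The median RAD21 shift went from −0.13 to 0.93 points when ranked by fold. The cause of these moves was not tested. No paired analysis was possible because each group had 1 list and the labels give no replicate numbers. A site without a call carries no value, so depth limits what can be said of weak sites.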
